A study of Mus musculus with 96 samples.

Results

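Upk1b and Crybb1 are 2 of the 22709 genes in a table of messenger RNA from 96 mouse brain libraries, and they were chosen because both had a much lower signal after the CSF1R inhibitor PLX5622 (PLX) than in control libraries. The PLX comparison therefore chose them, and its values are given below as a description, without a test. The libraries came from hippocampus and prefrontal cortex of male and female mice whose mothers had immune activation (MIA) or received saline (SAL), each with PLX or its control (CTRL). This gives 16 groups, 8 per tissue, with 6 libraries each except MIA CTRL females (7) and MIA CTRL males (5) in both tissues. In the design text the inhibitor was injected to target and renew microglia. Strain, age, the agent of immune activation, inhibitor dose and timing, and litter are not given in the sources used here. Each library is its own sample in the labels, and p-values measure the spread between libraries. Pups of 1 litter would not be independent, so p-values for MIA may be too small.

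Microglia, the resident macrophages of the brain, depend on signalling through the receptor CSF1R, and inhibitors of that receptor kill them or lower their number. When the inhibitor is withdrawn, new microglia refill the tissue. Upk1b encodes uroplakin 1B, a membrane protein of the tetraspanin family that is best known from the plaques on the surface of the bladder lining. Crybb1 encodes a beta crystallin, a structural protein of the eye lens. Both transcripts are also found in mouse microglia, and the Crybb1 locus has been used to drive Cre recombinase in brain macrophages of embryonic origin. In bulk tissue, fewer cells of a type and less RNA per cell cannot be told apart.

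The deposited values are read counts divided by 1 factor per library, called signal below. Libraries held 22.2 to 26.7 M reads in hippocampus and 22.8 to 25.9 M in prefrontal cortex. Of the tissue markers, 3 of 5 hippocampal and 4 of 5 neocortical genes were higher in their own tissue in every library. The hippocampal Wfs1 and Zbtb20 and the neocortical Fezf2 overlapped between tissues. Control means of Wfs1 (3321 in hippocampus, 3636 in prefrontal cortex) and Fezf2 (859 and 648) were higher in the other tissue. In both tissues, the libraries of 14 labels, called high-share libraries below, stood apart by a high share of reads in ribosomal protein and oxidative phosphorylation genes (1.26 to 1.44% against 0.894 to 1.11% in the other hippocampal libraries, and 1.23 to 1.40% against 0.864 to 1.19% in prefrontal cortex). In prefrontal cortex 16 libraries lay above the widest gap in this share, and the 2 whose labels did not do so in hippocampus were kept among the others. The high-share libraries made up 12 of 24 control and 2 of 24 PLX libraries in each tissue, so the averaged PLX values are also given from a fit with them as a covariate and from a fit that leaves them out.

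Upk1b was a gene of few reads. In hippocampus the control libraries held 18 to 58 Upk1b reads (median 42) and the PLX libraries 14 to 30 (median 20.5). In prefrontal cortex they held 14 to 49 (median 28) and 3 to 22 (median 9). The lowest library, a male MIA PLX library of prefrontal cortex, had 3 reads (exact Poisson 95% interval 0.619 to 8.77, counting error only). All 48 control libraries and the 24 hippocampal PLX libraries reached a signal of 10, the level that the filter on low values asks of at least 5 libraries, and 9 of 24 prefrontal PLX libraries did.

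In hippocampal controls Upk1b lay highest after saline. Female SAL CTRL libraries ran from 28.9 through a median of 44.8 to 57.0 (mean 44.3 ± 10.7, SD, n = 6), and male SAL CTRL libraries from 36.7 through 43.2 to 50.4 (43.3 ± 4.42, n = 6). Female MIA CTRL libraries spread from 18.7 through 29.3 to 54.3 (35.3 ± 12.2, n = 7). The 5 male MIA CTRL libraries read 24.9, 27.0, 27.1, 31.1 and 48.6 (31.8 ± 9.68). With PLX the hippocampal groups lay close together at about 20. Female SAL PLX libraries ran from 16.1 through 21.1 to 29.6 (21.9 ± 4.89, n = 6) and male ones from 15.6 through 20.9 to 28.2 (21.6 ± 4.24, n = 6). Female MIA PLX libraries ran from 14.96 through 20.8 to 26.0 (20.6 ± 4.05, n = 6) and male ones from 14.3 through 18.1 to 24.2 (18.6 ± 3.32, n = 6). All 24 PLX libraries lay below the median of the 24 hippocampal controls, and 10 lay below the lowest control, while 16 controls lay above the highest PLX library.

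In prefrontal cortex the separation of Upk1b was wider. Female SAL CTRL libraries ran from 24.5 through 29.6 to 41.1 (32.0 ± 6.54, n = 6) and male ones from 23.5 through 29.2 to 34.2 (28.8 ± 3.91, n = 6). Female MIA CTRL libraries ran from 14.3 through 26.7 to 30.7 (25.2 ± 5.46, n = 7), and the 5 male MIA CTRL libraries read 27.3, 27.4, 29.4, 31.8 and 45.4 (32.3 ± 7.54). The ranges of the 4 control groups overlapped. Female SAL PLX libraries ran from 5.15 through 7.54 to 19.0 (10.2 ± 5.66, n = 6) and male ones from 3.86 through 9.39 to 13.7 (8.67 ± 3.41, n = 6). Female MIA PLX libraries ran from 7.32 through 9.69 to 22.7 (11.9 ± 5.82, n = 6) and male ones from 3.14 through 10.3 to 16.1 (10.2 ± 4.46, n = 6). Here 20 of 24 PLX libraries lay below the lowest control, and 23 of 24 controls lay above the highest PLX library; the exception was a female MIA CTRL library at 14.3.

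**Figure D1:**
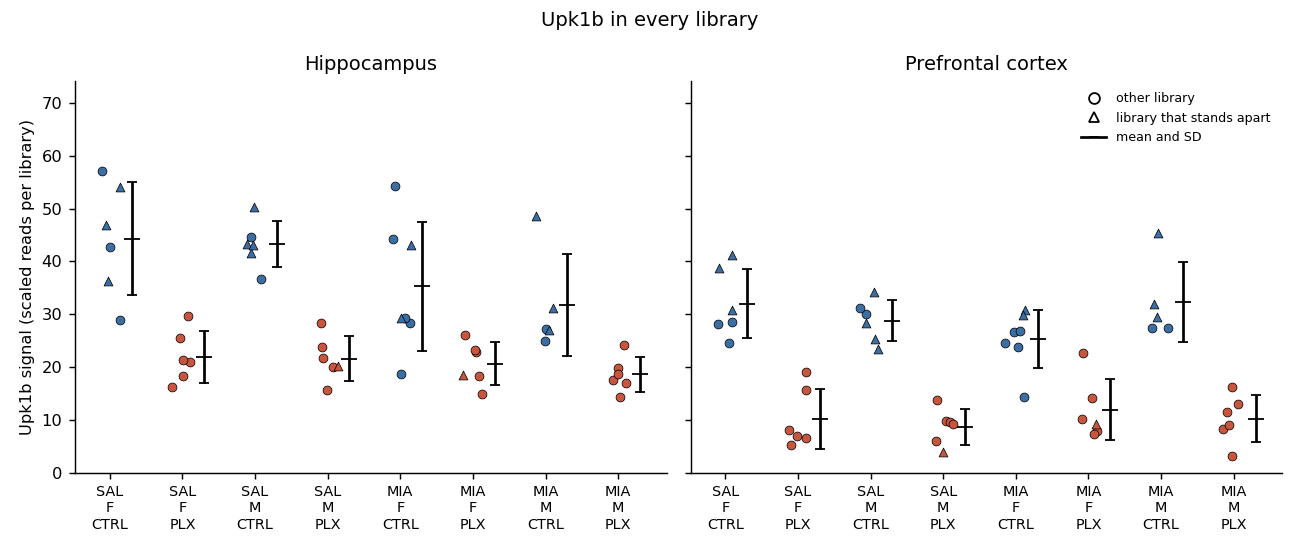
Upk1b signal (scaled reads per library, vertical axis) in each of the 16 groups, with SAL or MIA, sex (F or M) and CTRL or PLX on the horizontal axis; points are libraries, triangles are high-share libraries, and bars give the mean and SD. Prefrontal PLX libraries lie between 3.14 and 22.7, and hippocampal PLX libraries between 14.3 and 29.6.

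Crybb1 had more reads, 52 to 104 per hippocampal control library (median 76.5) and 63 to 154 in prefrontal controls (median 102.5), and every library of every group reached a signal of 10. Hippocampal female SAL CTRL libraries ran from 62.9 through a median of 87.3 to 93.4 (mean 83.1 ± 11.2, SD, n = 6) and male ones from 49.0 through 73.5 to 93.5 (73.0 ± 18.9, n = 6). Female MIA CTRL libraries ran from 60.9 through 73.3 to 80.9 (72.8 ± 8.44, n = 7), and the 5 male MIA CTRL libraries read 57.8, 59.1, 64.7, 81.4 and 86.5 (69.9 ± 13.2). These 4 control groups overlapped throughout. Female SAL PLX libraries ran from 47.8 through 57.6 to 86.8 (61.0 ± 14.8, n = 6) and male ones from 28.4 through 59.6 to 68.0 (56.4 ± 14.9, n = 6). Female MIA PLX libraries ran from 30.1 through 45.5 to 57.9 (44.7 ± 9.71, n = 6) and male ones from 27.2 through 41.4 to 61.6 (42.7 ± 11.1, n = 6). Of the 24 hippocampal PLX libraries, 23 lay below the control median but only 11 below the lowest control.

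Prefrontal Crybb1 was higher in controls and reached about the hippocampal level with PLX. Female SAL CTRL libraries ran from 76.6 through 104.8 to 148 (105 ± 24.3, n = 6) and male ones from 63.4 through 106.6 to 122 (99.6 ± 22.1, n = 6). Female MIA CTRL libraries ran from 84.6 through 96.8 to 117 (101 ± 12.1, n = 7), and the 5 male MIA CTRL libraries read 73.5, 74.1, 76.8, 94.1 and 110.0 (85.7 ± 15.99). Within each of these groups the libraries differed by more than the group means did. Female SAL PLX libraries ran from 46.3 through 51.6 to 90.8 (59.4 ± 17.7, n = 6) and male ones from 24.7 through 55.1 to 74.4 (52.9 ± 17.7, n = 6). Female MIA PLX libraries ran from 43.6 through 51.3 to 84.2 (57.0 ± 14.6, n = 6) and male ones from 38.7 through 49.8 to 56.0 (48.01 ± 6.78, n = 6). All 24 PLX libraries lay below the control median, 19 lay below the lowest control, and 16 controls lay above the highest PLX library. The male SAL PLX library numbered 3 was the lowest of its group in both tissues (28.4 and 24.7).

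**Figure D2:**
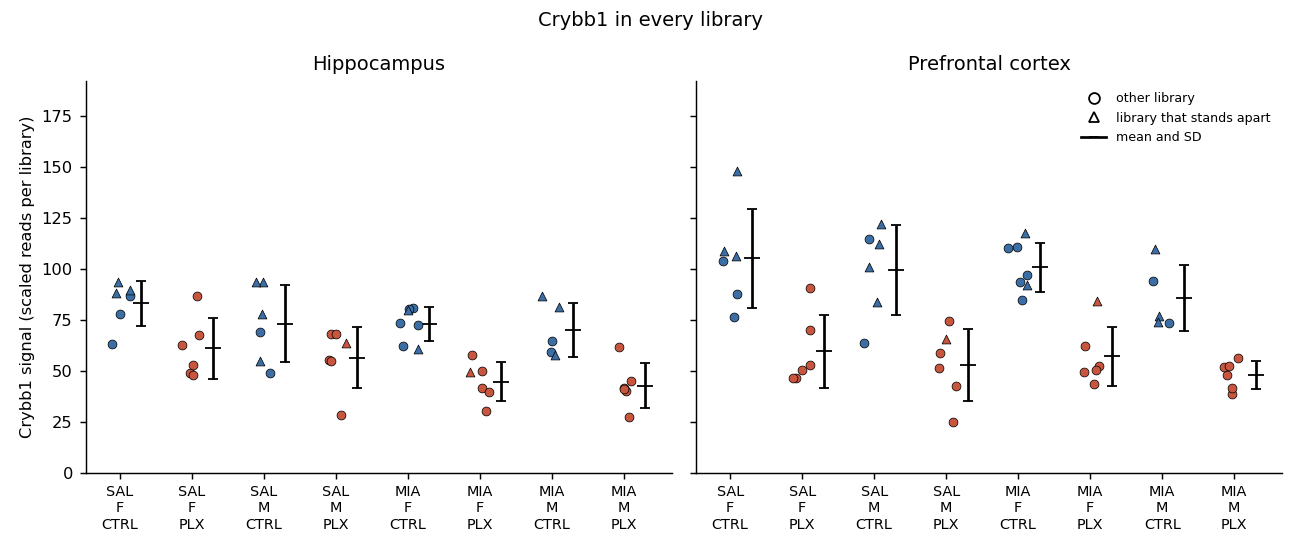
Crybb1 signal (scaled reads per library, vertical axis) in each of the 16 groups, with SAL or MIA, sex (F or M) and CTRL or PLX on the horizontal axis; points are libraries, triangles are high-share libraries, and bars give the mean and SD. Prefrontal controls reach 148 and prefrontal PLX libraries reach 90.8.

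Set in order, the 16 group means of Upk1b put all 8 control groups above all 8 PLX groups, which within a tissue follows from the choice of the gene. Between neighbours in that order, 1 step exceeded the larger SD of the pair, that from the lowest hippocampal PLX group (male MIA, 18.6) to the highest prefrontal PLX group (female MIA, 11.9). For Crybb1 all 8 control groups (lowest 69.9) likewise lay above all 8 PLX groups (highest 61.0), but no step between neighbours exceeded the larger SD of the pair. Its order began with the 4 prefrontal control groups and ended with female and male MIA PLX of hippocampus.

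Expressed as a share of the matching control mean, Upk1b with PLX stood at 49.5% (SAL females), 49.9% (SAL males), 58.5% (MIA females) and 58.6% (MIA males) in hippocampus, and at 32.0%, 30.2%, 47.2% and 31.5% in prefrontal cortex. Crybb1 stood at 73.5%, 77.3%, 61.4% and 61.1% in hippocampus and at 56.6%, 53.1%, 56.6% and 56.0% in prefrontal cortex. On the log2(signal + 1) scale, which understates changes of low genes, the difference of Upk1b averaged over sex and prenatal treatment was -0.84 ± 0.10 (SE) in hippocampus and -1.53 ± 0.14 in prefrontal cortex. That of Crybb1 was -0.57 ± 0.09 and -0.86 ± 0.10. By these estimates 0 of the 19841 genes tested in prefrontal cortex lay lower than Upk1b and 14 lower than Crybb1, and in hippocampus 5 and 52 of 19938 did.

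With high-share status as a covariate, the averaged differences of Upk1b were -0.79 ± 0.11 and -1.52 ± 0.16, and without those libraries -0.73 ± 0.14 and -1.37 ± 0.20 (hippocampus and prefrontal cortex). Those of Crybb1 were -0.47 ± 0.10 and -0.73 ± 0.10 with the covariate, and -0.45 ± 0.12 and -0.79 ± 0.12 without the libraries. High-share control libraries held on average more of both transcripts than the other controls: Upk1b 41.2 ± 8.62 against 36.4 ± 12.1 in hippocampus and 32.4 ± 6.44 against 26.1 ± 4.33 in prefrontal cortex (SD, 12 libraries each). Crybb1 was at 79.8 ± 14.3 against 69.8 ± 10.8 and at 104 ± 20.8 against 92.5 ± 16.1. Among the PLX differences of single strata, 1 moved by over 1.5 times: Crybb1 in hippocampal SAL males was -0.38 ± 0.18, but -0.20 without PLX library 3 and -0.14 ± 0.28 without the high-share libraries.

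**Figure D3:**
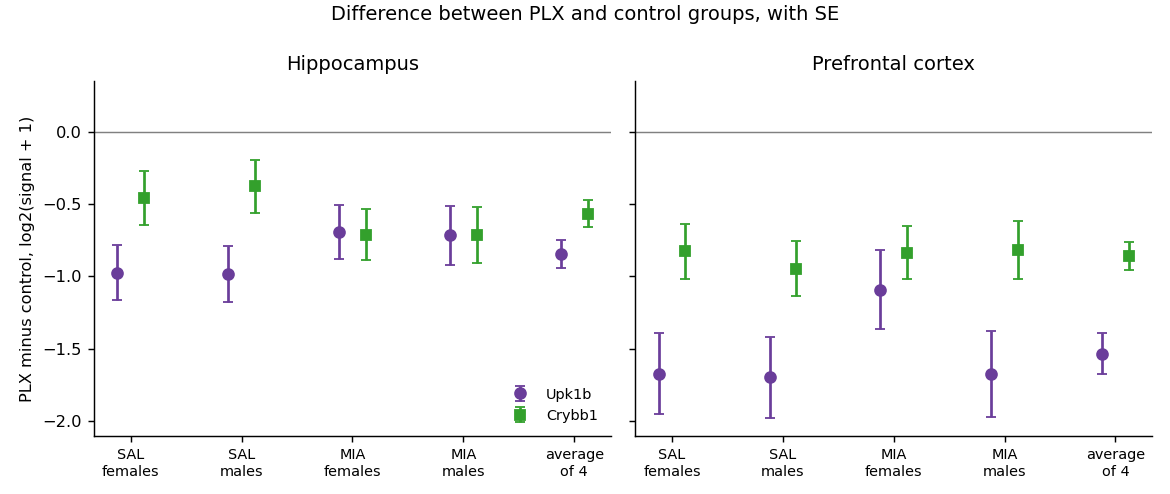
Difference between PLX and control groups (vertical axis, log2(signal + 1)) for Upk1b and Crybb1 in the 4 strata of sex and prenatal treatment and on average (horizontal axis), with SE bars. In prefrontal cortex the averages are -1.53 for Upk1b and -0.86 for Crybb1.

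Within strata, every PLX library lay below every control library for Upk1b in hippocampal SAL males (0.216% of all genes tested did so) and MIA males (1.08%), and in prefrontal SAL females (0.318%), SAL males (0.58%) and MIA males (0.716%). For Crybb1 this held in hippocampal MIA females (0.115%) and in prefrontal MIA females (0.131%) and MIA males (0.716%). The members were chosen on this contrast, so nothing is read from these counts. In the remaining 3 strata of Upk1b and 5 of Crybb1 the groups overlapped, as in hippocampal SAL females (background 0.416%), where 5 of 6 Upk1b and 4 of 6 Crybb1 PLX libraries lay below the lowest control.

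Comparisons that did not choose the genes were tested with limma, two-sided, with Benjamini-Hochberg adjustment over all genes tested. For MIA against saline, 0 of the 2 genes were called in any of 8 comparisons (2 tissues, each sex, with control and with PLX). Over all genes tested limma called 0.00502% in female hippocampal controls and 0% in the other 7, with 475 to 1278 genes below 0.05 before adjustment, while edgeR called 0 to 1 and DESeq2 0 to 15. The largest differences of Upk1b were in hippocampal controls, -0.36 ± 0.19 in females (limma adjusted p = 0.767) and -0.47 ± 0.20 in males (limma adjusted p = 1.00). Averaged over sex, a comparison added after these values were seen, MIA controls lay 0.41 lower: the difference was -0.41 ± 0.14 with a 95% interval from -0.68 to -0.15 (unadjusted p = 0.00417, limma adjusted p = 0.904), and limma called 0 genes there (847 before adjustment), edgeR 0 and DESeq2 5. In prefrontal controls the same average of Upk1b was -0.10 ± 0.20. The largest differences of Crybb1 were in hippocampal PLX libraries, -0.44 ± 0.18 in females (limma adjusted p = 0.998) and -0.38 ± 0.18 in males (limma adjusted p = 1.00). Neither the Upk1b nor the Crybb1 difference passed the threshold.

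Interactions with PLX reuse the PLX values that chose the genes, and their estimates are given as a description, without a p. For Upk1b the interaction of MIA with PLX was 0.28 ± 0.27 in hippocampal females and 0.27 ± 0.28 in males, and 0.58 ± 0.39 and 0.022 ± 0.41 in prefrontal cortex. For Crybb1 it was -0.25 ± 0.26 and -0.34 ± 0.27 in hippocampus, and -0.0091 ± 0.27 and 0.13 ± 0.28 in prefrontal cortex. The 95% interval for Upk1b in prefrontal females ran from -0.18 to 1.35. All 8 estimates were smaller than 1.5 SE, and single libraries moved them: Upk1b in hippocampal females was 0.14 without MIA CTRL library 5, and in prefrontal females 0.39 without MIA PLX library 3. Limma, edgeR and DESeq2 each called 0 genes in these 4 interactions, with 425 to 797 genes at an unadjusted p under 0.05 in limma, and the share called over all genes was 0%. Between sexes, Upk1b differed by 0.069 ± 0.097 (female minus male) in hippocampus and 0.045 ± 0.14 in prefrontal cortex, and Crybb1 by 0.12 ± 0.09 and 0.19 ± 0.10. Limma adjusted p for these 4 ran from 0.831 to 0.977, and limma called 0.246% and 0.141% of all genes by sex in the tissues. The interaction of sex with PLX was at most 0.30 ± 0.28 (Upk1b, prefrontal cortex), and 0.17 without male MIA PLX library 3; 0% of genes were called, with 984 and 900 before adjustment at p under 0.05 in limma, and edgeR and DESeq2 called 0.

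The 2 genes had opposite tissue patterns in controls. Upk1b was higher in hippocampus, by 0.35 ± 0.12 on the log2 scale (limma adjusted p = 0.0108), and Crybb1 was higher in prefrontal cortex, with a hippocampus minus prefrontal difference of -0.38 ± 0.10 (limma adjusted p = 0.000424). The authors' factors may have set the scale within each tissue, and TMM scaling over all 96 libraries gave 0.35 and -0.38. Over all genes 52.6% were called in this comparison (27.5% higher and 25% lower in hippocampus), so a call sets neither gene apart. For Upk1b the call was lost with high-share status as a covariate (0.32 ± 0.17, limma adjusted p = 0.112) and without those libraries (0.36 ± 0.20, limma adjusted p = 0.144). The estimate stayed close to 0.35 while its SE grew. For Crybb1 the call held (limma adjusted p = 0.0185 and 0.0201). With libraries of the same label treated as a block, both calls held (limma adjusted p = 0.00141 for Upk1b and 4.13e-06 for Crybb1). The labels do not say whether they mark 1 animal. The PLX difference of Upk1b was smaller in hippocampus than in prefrontal cortex by 0.69 ± 0.17, with a 95% interval from 0.35 to 1.03, and that of Crybb1 by 0.29 ± 0.13. These are also descriptions of the values that chose the genes, and no p is given for them here. Limma, edgeR and DESeq2 called 0 genes here (0%), with 550, 535 and 530 genes, in that order, before adjustment at p under 0.05.

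The relatives of Upk1b had smaller PLX differences than Upk1b. Since this contrast chose Upk1b, that order is a description only. Upk1a, the other uroplakin in the table and also a tetraspanin, was at 12.5 ± 4.54 in hippocampal controls and 14.3 ± 4.57 with PLX (SD, n = 24 each), and at 12.4 ± 4.25 and 13.4 ± 6.24 in prefrontal cortex; limma did not call it (adjusted p = 0.277 and 0.794). Over all genes, the averaged PLX comparison called 40% in hippocampus (20.8% higher, 19.2% lower) and 37.8% in prefrontal cortex (19.7% higher, 18.1% lower). With high-share status as a covariate it called 0.376% (0.261% higher, 0.115% lower) and 0.217% (0.116% higher, 0.101% lower), and without those libraries 0.0457% and 0.143%. Among the tetraspanins other than Upk1b, 9 of 26 tested in hippocampus were lower, 2 higher and 15 not called, with a median of -0.10 against -0.0017 over all genes, and in prefrontal cortex 8 of 28 were lower, 1 higher and 19 not called (median -0.09 against -0.00024). The lowest was Cd63, a tetraspanin of endosomes and lysosomes, at -0.28 ± 0.08 (limma adjusted p = 0.00833) and -0.30 ± 0.07 (limma adjusted p = 0.00168). Cd37, a leukocyte tetraspanin, was called lower in both (-0.18 and -0.21), while Tspan32 rose by 0.45 and 0.61 from low control means of 5.61 and 4.77. With the covariate, 0 tetraspanins other than Upk1b were called in either tissue. Markers of bladder lining other than Upk1b (4 tested) were not called in either tissue.

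The other crystallins likewise had smaller differences than Crybb1, which was chosen on this contrast, so this order too is a description only. Of 7 others tested in hippocampus 1 was higher and 6 not called, and of 6 in prefrontal cortex 1 was higher, 1 lower and 4 not called. Crybg3, a distant relative of the lens crystallins, rose by 0.36 ± 0.08 (limma adjusted p = 0.00134) and 0.36 ± 0.09 (limma adjusted p = 0.0031), but with the high-share covariate it was at 0.12 and 0.062 and not called (limma adjusted p = 0.313 and 0.657). Cryab, the small heat shock crystallin of glia, was at 1388 and 1307 in control and PLX hippocampus, and Crybb3, another lens beta crystallin, at 34.6 and 36.2; neither was called. Cryba4, a lens beta crystallin whose gene lies beside Crybb1 on chromosome 5, was at 10.2 ± 3.08 and 9.93 ± 4.04 in hippocampus, with no call (limma adjusted p = 0.7). In prefrontal cortex Cryba4 fell from 13.3 ± 3.69 to 9.58 ± 3.37, by 0.47 ± 0.13 (limma adjusted p = 0.00517), a call also lost with that covariate (limma adjusted p = 0.315). The whole RefSeq spans of Cryba4 and Crybb1 overlap on opposite strands, but the annotated starts give another picture. The Crybb1 start, on the plus strand of chromosome 5, lies within 112255570-112255869. The Cryba4 start, on the minus strand, lies at lower coordinates, within 112252469-112252768. From these starts the genes run apart and share no bases. This conflict was not resolved. The strand setting of the counting is not stated, so reads of any overlap could belong to either. Of 8 other lens markers, 3 were tested in hippocampus and 2 in prefrontal cortex, and none was called.

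The upstream sequences of this neighbouring pair are shown because Crybb1 had a lower signal with PLX in both tissues, while Cryba4, at far lower values, was called in 1. Each window covers 250 bases before to 50 after the annotated start, from RefSeq (GRCm38.p6), chr5:112255570-112255869 on the plus strand for Crybb1 and chr5:112252469-112252768 on the minus strand for Cryba4. Capitals mark matches to a TATA box (TATAAA) and a Maf recognition motif (TGCTGAC), searched on both strands along with a PU.1 core (GAGGAA); matches did not overlap.
Crybb1: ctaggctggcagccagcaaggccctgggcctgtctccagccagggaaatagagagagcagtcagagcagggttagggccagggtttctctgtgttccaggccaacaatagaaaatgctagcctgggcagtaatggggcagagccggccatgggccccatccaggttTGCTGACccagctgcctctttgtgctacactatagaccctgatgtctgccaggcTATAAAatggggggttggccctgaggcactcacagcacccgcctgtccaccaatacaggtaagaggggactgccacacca
Cryba4: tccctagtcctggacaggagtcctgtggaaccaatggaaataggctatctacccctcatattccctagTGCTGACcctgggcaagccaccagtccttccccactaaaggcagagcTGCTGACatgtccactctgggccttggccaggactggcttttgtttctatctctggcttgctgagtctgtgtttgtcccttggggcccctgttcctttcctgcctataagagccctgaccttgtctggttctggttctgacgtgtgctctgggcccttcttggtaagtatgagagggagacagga
Crybb1 held TATAAA with its first base at position -30 from the start and TGCTGAC at -84, and no GAGGAA. Cryba4 held TGCTGAC at -182 and -135, and neither of the other motifs. Among all 32851 promoter windows of this length in the table, 13.6% held TATAAA, 4.67% TGCTGAC and 28.3% GAGGAA. These matches describe letters only. Upk1b is not in the promoter table.

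Of the genes beside the pair studied here, B4galt4, a galactosyltransferase next to Upk1b on chromosome 16, was not called (-0.0068 in hippocampus, limma adjusted p = 0.884, and -0.053 in prefrontal cortex, limma adjusted p = 0.147). Tpst2, a tyrosine sulfotransferase on the other side of Crybb1, fell in hippocampus by 0.16 (limma adjusted p = 0.0161) and had a difference of -0.15 in prefrontal cortex that was not called (limma adjusted p = 0.0632). That fit called 19.2% of all genes tested lower in hippocampus, so the call does not set Tpst2 apart. Values with the high-share covariate are not given for B4galt4 and Tpst2. Both genes had smaller differences than Upk1b and Crybb1, again on the contrast that chose the pair.

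On the averaged PLX difference, the contrast that chose them, Upk1b and Crybb1 also lay below every microglial marker. Of 34 microglial markers, 14 were lower, 1 higher and 19 not called in hippocampus (median -0.09), and 15, 1 and 18 in prefrontal cortex (median -0.11). With the high-share covariate, 3 were lower and 2 higher in hippocampus and 7 and 2 in prefrontal cortex. The lowest marker in both tissues was Fcrls, a scavenger receptor of microglia, at -0.47 ± 0.05 and -0.56 ± 0.05 (limma adjusted p = 8.18e-08 and 4.15e-11). Its averaged difference was smaller than that of either gene in the same tissue, but in hippocampus Crybb1 stood close, at -0.57 ± 0.09. In both hippocampal SAL strata mean Fcrls fell by a larger proportion than mean Crybb1. Fcrls went from 624 to 420 in females and from 524 to 378 in males, and Crybb1 from 83.1 to 61.0 and from 73.0 to 56.4. Csf1r, the receptor targeted by PLX5622, fell by 0.11 in hippocampus (limma adjusted p = 0.00859) and by 0.20 in prefrontal cortex (limma adjusted p = 0.000229). P2ry12, a purine receptor, was at -0.27 and -0.33, Siglech, a sialic acid binding lectin, at -0.26 and -0.32, and Cx3cr1, the fractalkine receptor, at -0.21 and -0.25. Tmem119 was at -0.14 and -0.16, and all of these were called lower, while Sall1, a transcription factor of microglia, was at 0.020 and 0.074 (limma adjusted p = 0.766 and 0.67). With the covariate, P2ry12, Cx3cr1 and Fcrls kept their calls in both tissues, while Csf1r and Siglech were called in prefrontal cortex (limma adjusted p = 0.00278 and 0.00213) and not in hippocampus (limma adjusted p = 0.242 and 0.0632). Tmem119 was then at -0.036 and -0.063 and called in neither tissue (limma adjusted p = 0.785 and 0.674).

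Markers of macrophages at the brain's borders also moved, unevenly. Of 11 tested in hippocampus 4 were lower and 7 not called (median -0.25), and of 12 in prefrontal cortex 4 were lower, 4 higher and 4 not called (median -0.03). Cd163, a haemoglobin scavenger receptor, had differences of -1.28 and -0.54 (limma adjusted p = 4.38e-07 and 0.000423), and the lectin genes Cd209a and Cd209f had differences of -1.504 and -1.26 in hippocampus and -1.16 and -1.078 in prefrontal cortex, all called lower. With the high-share covariate 2 of 11 were lower in hippocampus (Cd163 and Cd209a) and 3 of 12 in prefrontal cortex (these and Cd209f), against 0.115% and 0.101% of all genes, and 0 were higher in either tissue. The 4 called higher in prefrontal cortex were Folr2 at 0.77, F13a1 at 0.47, Lyve1 at 0.40 and the mannose receptor Mrc1 at 0.21. Their limma adjusted p were 0.00308, 0.0012, 0.0253 and 0.0422, and Folr2 had a low control mean of 4.18. These calls were lost with the covariate (limma adjusted p = 0.679 for Mrc1). In hippocampus Mrc1 was at -0.016 (limma adjusted p = 0.955), F13a1 and Lyve1 were not called, and Folr2 was not tested. The summed level of the 12 markers ranged from 435 to 1235 in hippocampal controls and 450 to 1025 with PLX, and from 730 to 1232 and 778 to 1244 in prefrontal cortex, with 0 of 12 at 0 throughout; their part in the Upk1b and Crybb1 differences was not tested. Summed microglial markers ranged from 25490 to 38207 in hippocampal controls and 25613 to 31270 with PLX, and from 24187 to 32054 and 23285 to 28595 in prefrontal cortex. Of 10 blood leukocyte markers 3 are in the table, and none of those tested was called. Choroid plexus markers summed to 936 to 96926 in hippocampal controls and 810 to 85178 with PLX, with 0 of 7 called there, while in prefrontal cortex 1 of 4 tested was lower (Ttr, the transthyretin gene, -0.77, limma adjusted p = 0.025). Of 4 endothelial markers 2 were lower in each tissue, and of 4 neuronal markers 2 were lower in hippocampus and 1 in prefrontal cortex. With the covariate 0 of these choroid plexus, endothelial and neuronal markers were called, and their part in the Upk1b and Crybb1 differences was not tested.

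**Figure D4:**
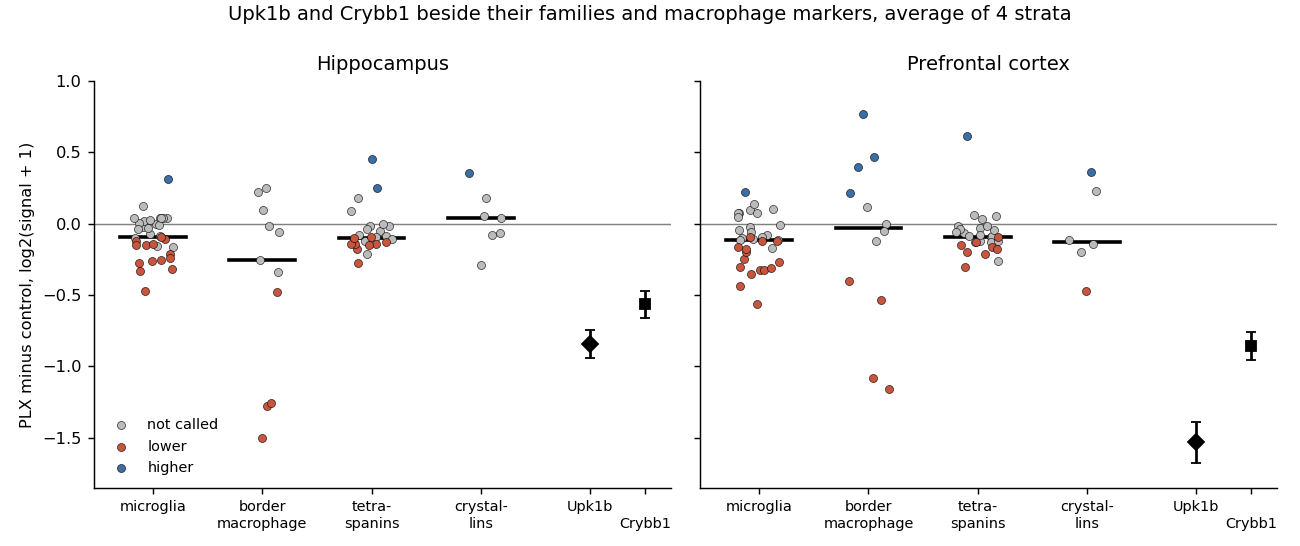
Averaged difference between PLX and control (vertical axis, log2(signal + 1)) of single genes in 4 lists, coloured by limma call, with the list median as a bar, beside Upk1b and Crybb1 with SE. In prefrontal cortex Upk1b at -1.53 lies below all genes of the 4 lists, while in hippocampus Cd163, Cd209a and Cd209f lie below both genes.

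Across the 48 libraries of a tissue, which share the PLX contrast and differ in depth, Upk1b and Crybb1 had a Pearson r of 0.57 in hippocampus and 0.69 in prefrontal cortex on the log2 scale. Once group means were taken out, r was 0.029 and 0.038. Within the 24 control and the 24 PLX libraries of each tissue r of these deviations lay between -0.014 and 0.072. Between tissues, the deviations of Crybb1 in libraries of the same label had r = 0.69 in controls and 0.43 with PLX, and those of Upk1b had r = 0.15 and 0.33 (24 labels each). High-share status goes with the label and is the same in both tissues, and the deviations were not adjusted for it. Spread of Upk1b reads within groups had a variance over mean of 0.94 with PLX in hippocampus, close to the 1 of pure counting, 2.81 in hippocampal controls, 1.6 in prefrontal controls and 2.25 with PLX in prefrontal cortex. For Crybb1 it lay between 2.81 and 5.19, so Crybb1 varied more than counting error in both tissues and both conditions.

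**Figure D5:**
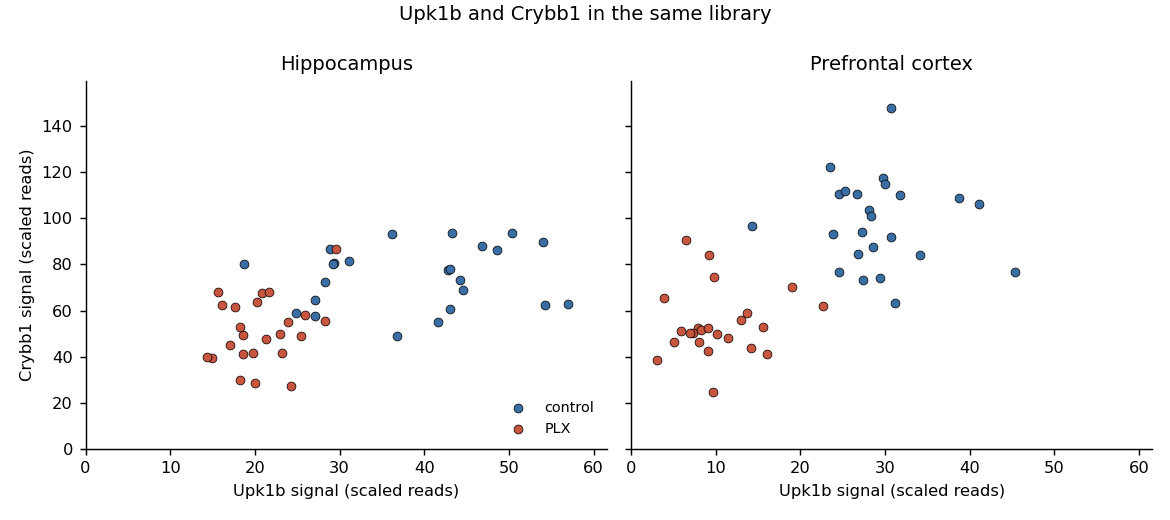
Crybb1 signal (vertical axis, scaled reads) against Upk1b signal (horizontal axis, scaled reads) in each of the 48 libraries of a tissue, coloured by control or PLX. Control and PLX libraries form 2 clouds that partly overlap in hippocampus. Within a cloud the 2 genes show little joint trend (r of deviations 0.029 in hippocampus and 0.038 in prefrontal cortex).

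Genes were ranked by the lower of their correlations with each gene in the 2 tissues, over 48 libraries per tissue and 19365 genes. Those most like Upk1b were Myo18b, an unconventional myosin (r = 0.76 in hippocampus and 0.69 in prefrontal cortex), Fcrls (0.68 and 0.72), Siglech (0.61 and 0.76), Cwc27, a spliceosome-associated cyclophilin (0.65 and 0.59), and Cd163 (0.61 and 0.59). Crybb1 ranked 12 in this list. Those most like Crybb1 were the peptidase Pepd (0.67 and 0.66), Cnpy2 (0.64 and 0.65), Fahd1 (0.65 and 0.64), the proteasome subunit Psmb5 (0.65 and 0.64) and Selplg, the ligand of P-selectin (0.63 and 0.77), and Upk1b ranked 207. Both rankings span control and PLX libraries, so the contrast that chose the 2 genes enters these correlations. It favours genes that also fell with PLX, such as Myo18b (-0.68 in hippocampus and -0.58 in prefrontal cortex). On deviations from group means the 3 leading genes for Crybb1 were Htra1, a secreted serine protease (0.73 and 0.65), Ip6k1 (0.63 and 0.66) and Ube2g2 (0.65 and 0.63). For Upk1b the leading genes included Ssc4d (0.33 and 0.45) and Lypd6 (0.32 and 0.41), after 2 predicted genes that are not named. Here too the deviations were not adjusted for high-share status.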

How the data were processed

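Messenger RNA libraries were prepared with an Illumina stranded ligation kit and sequenced on an Illumina NovaSeq, per the labels' protocols. The submitters' processing notes name Trimmomatic and STAR 2.6.1d with GRCm39 (mm39). The counting tool was not named in the sources. Each deposited signal value is a read count divided by 1 factor per library; whole reads were recovered in all 96 columns (100% of values within 0.0001 of a whole number). All libraries were used, with groups from the labels. Genes that reached a signal of 10 in 5 or more libraries were fitted with limma 3.58.1 (R 4.3.3, trend) on log2(signal + 1), all 8 groups of a tissue in 1 fit and all 16 for tissue comparisons. A call is a Benjamini-Hochberg adjusted p under 0.05; 95% intervals are 1.96 SE on each side. Alternatives were edgeR 4.0.16 and DESeq2 1.42.0 on recovered reads, TMM scaling, pseudocounts 0.5 and 5, no filter, a covariate for or omission of the 14 high-share labels, a replicate block, and leaving out each label. Code was tested on simulated counts. Named genes were Upk1b and Crybb1, reference genes of microglia, the listed genes with the smallest p in the PLX comparison, the genes most correlated with either, and their chromosome neighbours. Mrc1 was named outside this rule, after its values were seen, and some genes that the rule names are not reported here. The genes and lists were chosen with earlier results of these data known.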

Additional observations from a re-analysis of the deposited data

Results flagged for a closer look

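In each group the highest and the lowest library of Upk1b and Crybb1 was compared with its nearest neighbour. In 4 of 32 such groups 1 library lay far from the others, where chance gives about 1 in 20. Upk1b read 48.6 in male MIA CTRL library 3 of hippocampus, where the next of 5 was 31.1. Upk1b read 45.4 in male MIA CTRL library 4 of prefrontal cortex, where the next of 5 was 31.8. Upk1b read 14.3 in female MIA CTRL library 1 of prefrontal cortex, below the next of 7 at 23.8. Crybb1 read 28.4 in male SAL PLX library 3 of hippocampus, below the next of 6 at 55.0. These libraries were kept.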

How the results depend on the processing

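The PLX differences of Upk1b and Crybb1 kept their sign in every stratum under 9 alternatives and 48 fits without 1 label. Averaged, Upk1b ranged from -0.89 to -0.73 in hippocampus and from -1.59 to -1.22 in prefrontal cortex over the alternatives, and Crybb1 from -0.57 to -0.45 and from -0.86 to -0.73. The counts over many genes depended most on the high-share libraries. In hippocampus 7972 genes were called in the averaged PLX comparison, 75 with a covariate for these libraries and 9 when they were left out, and in prefrontal cortex 7499, 43 and 28. Microglial markers called lower went from 14 to 3 with the covariate and 1 without these libraries in hippocampus, and from 15 to 7 and 6 in prefrontal cortex; those called higher went from 1 to 2 and 0, and from 1 to 2 and 2. Leaving out 1 label gave 13 to 14 lower and 1 to 2 higher in hippocampus (2 without female SAL CTRL 6), and 13 to 16 and 1 to 3 in prefrontal cortex (2 without male MIA CTRL 2 or male SAL CTRL 6, 3 without female SAL CTRL 6). The cause was not tested. The hippocampus minus prefrontal difference of Upk1b in controls was 0.32 ± 0.17 with the covariate and 0.36 ± 0.20 without these libraries. Neither was called, against 0.35 ± 0.12 and a call in the main fit.

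The same labels occur in both tissues, and the labels do not say whether they mark 1 animal. Deviations of same-label libraries had a median correlation of 0.21, over 0.1 in 38 of 48 pairs, and 38 of 48 libraries correlated best with their own label, a hint from the data and not the design. The tissue difference in the PLX effect of Upk1b, 0.69, had an SE of 0.17, and of 0.14 with the label as a replicate block. Over the alternatives it ranged from 0.48 to 0.73. Since PLX values chose the gene, no p is given for it. Within a tissue the replicate number did not pair the libraries (median correlation -0.0056 and -0.0051), and a block on it changed no call of either gene. With few reads, as for prefrontal Upk1b with PLX, counting error limits differences between libraries.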
